A study of Arabidopsis thaliana with 36 samples.

Results

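A set of 9 genes that control flowering time in Arabidopsis thaliana were followed through a short cold treatment and the return to warmth. They were FLC (AT5G10140), FLM (AT1G77080), MAF4 (AT5G65070), MAF5 (AT5G65080), SVP (AT2G22540), VIN3 (AT5G57380), CO (AT5G15840), FT (AT1G65480) and SOC1 (AT2G45660). They were taken by their identifiers, with earlier results of these data known. These 9 genes are part of 34262 in the deposited tables, and all 9 passed the filter on low counts that left 20679 genes to test, although VIN3 passed only through the cold libraries. The filter also removed CO from fits that held only plants never cold and plants after the cold.

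RNA of whole rosettes was sequenced in 36 libraries, 3 biological replicates for each of 12 groups. The groups were the wild type Col0 and the mutant lines mbf1c and jub1, each under 4 conditions. NonA plants were 28 days old and had not been cold. ACC plants had then spent 3 days at 4 °C and were 31 days old, and Deacc2 and Deacc4 plants had the same 3 days of cold followed by 2 or 4 days back at 20 °C, at ages of 33 and 35 days. All plants had grown for a time in short days and then in long days before the experiment, and the cold was given under long days at 90 µE of light, against 200 µE in the warm. Temperature, light and age therefore changed together and cannot be told apart, and the hour of harvest was not stated in the labels. The labels name no allele for either mutant line. Libraries held 14407060 to 63178347 counts in genes, and 3 counts, the limit that a count of 0 allows, were worth 0.0475 to 0.208 counts per 1000000 gene counts (CPM). The mutated genes were low in their own lines: MBF1C was 3.50 ± 0.420 CPM in Col0 and 1.06 ± 0.676 in mbf1c at NonA (SD, n = 3), and JUB1 was 4.11 ± 1.41 in Col0 and 0.623 ± 0.151 in jub1. The leaf markers RBCS1A, RCA, CA1 and LHCA4 summed to 15196 CPM or more in every library, and the floral organ markers AG, AP3, PI, SEP1, SEP2 and SEP3 to at most 2.29 CPM.

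In this plant FLC and its relatives FLM (also called MAF1), MAF4 and MAF5 are MADS-box proteins that hold back flowering, and SVP is a partner that binds with them. Long cold induces VIN3, a PHD-finger protein that helps Polycomb complexes silence FLC, in the process called vernalization. In long days CO, a B-box protein, activates FT in the leaf, and the FT protein moves to the shoot tip, where SOC1, another MADS-box gene, promotes the floral transition.

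The 300 bases before the start of VIN3, FLC and FT are shown because VIN3 and FLC carry the largest rise and the most lasting fall among the 9 genes and FT is the output of CO. Capitals mark the motifs searched on both strands, none of which overlaps another here: the C-repeat core CCGAC, the evening element AAAATATCT, the G-box CACGTG and the CO-responsive core TGTGNNATG. The sequences are from RefSeq, build TAIR10.1, read on the strand of the gene, 5′ to 3′. VIN3 lies on the minus strand, with its window at chr5:23249505-23249804, FLC on the minus strand at chr5:3179449-3179748, and FT on the plus strand at chr1:24331073-24331372.
VIN3: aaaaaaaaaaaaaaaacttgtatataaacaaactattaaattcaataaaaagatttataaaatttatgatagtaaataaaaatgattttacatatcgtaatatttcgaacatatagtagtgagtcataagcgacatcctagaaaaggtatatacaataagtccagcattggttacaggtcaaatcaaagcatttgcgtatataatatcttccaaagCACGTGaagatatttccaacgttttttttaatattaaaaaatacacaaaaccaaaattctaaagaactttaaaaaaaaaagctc
FLC: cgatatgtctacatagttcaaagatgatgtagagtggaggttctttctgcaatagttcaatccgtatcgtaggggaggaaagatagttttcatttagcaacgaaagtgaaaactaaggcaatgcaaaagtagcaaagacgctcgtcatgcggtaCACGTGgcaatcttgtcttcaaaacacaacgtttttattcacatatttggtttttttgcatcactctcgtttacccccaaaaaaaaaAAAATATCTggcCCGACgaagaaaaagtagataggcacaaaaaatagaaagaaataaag
FT: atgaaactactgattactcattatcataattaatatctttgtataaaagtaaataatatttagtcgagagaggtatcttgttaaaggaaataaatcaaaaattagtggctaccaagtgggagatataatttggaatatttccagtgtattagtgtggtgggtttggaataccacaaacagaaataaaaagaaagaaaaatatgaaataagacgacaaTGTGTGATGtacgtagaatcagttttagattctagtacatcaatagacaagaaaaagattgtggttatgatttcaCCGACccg
The VIN3 window held a G-box 84 bases before the gene start. The FLC window held a C-repeat core, an evening element and a G-box 47, 59 and 146 bases before its start, and the FT window held a C-repeat core at 8 and a CO-responsive core at 83 bases. Among 27443 gene windows of the same length, 13.9% held CCGAC, 2.79% AAAATATCT, 7.09% CACGTG and 4.03% TGTGNNATG. The C-repeat core was also in the FLM window and the evening element in that of MAF5, and the windows of MAF4, SVP, CO and SOC1 held none of these letters.

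VIN3 rose in the cold in every line and was back near 0 after 2 days of warmth. Its counts in the ACC libraries of Col0, mbf1c and jub1 in turn were 17, 12 and 54, then 46, 9 and 45, then 16, 44 and 8. Of the 27 warm libraries 16 had no VIN3 count, 10 had 1 to 3 counts, and a jub1 library at Deacc2 had 6. All 9 cold libraries were thus above all 27 warm libraries, with 0.252, 0.491 and 1.10 CPM as the lowest, median and highest level in the cold after TMM scaling, the scaling used for all levels unless stated. Summed over lines, 251 counts at ACC stood against 4 at NonA, a ratio at equal depth of 38.7 (95% counting interval 14.9 to 143), and against 10 at Deacc2 and 6 at Deacc4, ratios of 22.2 (11.9 to 46.8) and 30.4 (13.8 to 83.6). In jub1 at Deacc4 no VIN3 count was found in 3 libraries, and the cold level was at least 12.6-fold higher, taking 3 counts over the group as the floor. These intervals cover counting error only.

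VIN3 passed the filter on low counts through the libraries in which it is high, so its tests are given from the fit without that filter. There edgeR's quasi-likelihood test over the mean of lines called the rise (log2 change 5.01, adjusted p = 9.24e-08), the fall from ACC to Deacc2 (−4.46, adjusted p = 7.23e-08) and the fall to Deacc4 (−5.31, adjusted p = 5.74e-08). These values rest on the unstranded counts, which set aside reads that fall where genes overlap. On 1.14% of its exonic bases VIN3 overlaps AT5G57370 on the opposite strand, a gene with 22037 counts over all libraries. In the sum of the 2 strand columns VIN3 held 204 counts at NonA in place of 4 and 493 at ACC in place of 251, and with the first strand column the rise was 0.31 and not called (adjusted p = 0.21), nor was the fall to Deacc2 (−0.43, adjusted p = 0.0756). The change from ACC to Deacc4 was 0.02 in that column (adjusted p = 0.941). The unstranded column sets aside only reads that touch several genes, so the added counts are reads that also touch another gene. AT5G57370 held 4314 counts in the 2 strand columns in place of 4114 at NonA, and 7493 in place of 7252 at ACC. How many of the added counts are VIN3 RNA was not tested.

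**Figure D1:**
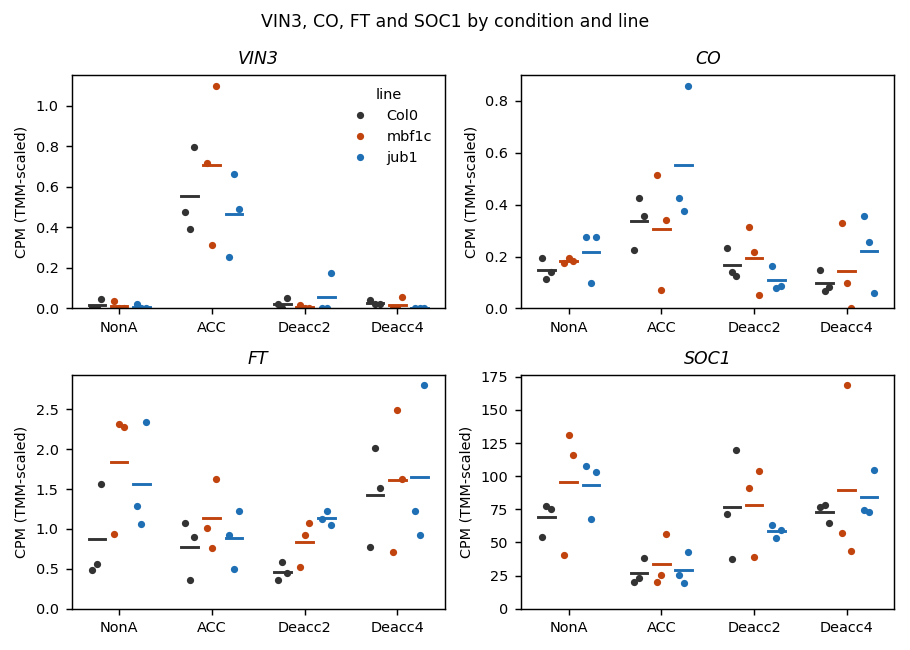
Levels of VIN3, CO, FT and SOC1 in CPM after TMM scaling (vertical axis, linear from 0) at NonA, ACC, Deacc2 and Deacc4 (horizontal axis). Each dot is a library, coloured by line, and each bar is the mean of 3 libraries. VIN3 stands at 0.252 to 1.10 CPM in the cold and at most at 0.174 in the warm, and SOC1 drops in the cold and returns.

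VIN3 is left out of the next counts, since the filter kept it through its cold level. CO is kept in them, although the filter removed it from fits of NonA with Deacc2 or Deacc4 alone. Over the mean of lines, 6 of the other 8 genes changed between NonA and ACC, 1 higher and 5 lower, where 70.4% of all genes tested were called, so the number is close to the background. Between ACC and Deacc2, 4 changed (3 higher, 1 lower; background 64.8%), and between ACC and Deacc4, 5 changed (4 higher, 1 lower; background 67.6%). CO was the gene called higher at ACC against NonA and the gene called lower in both of these comparisons. Compared with NonA, 3 were lower at Deacc2 (background 40.7%) and 2 at Deacc4 (background 40.3%). Between Deacc2 and Deacc4 edgeR called 0 of the 9 genes (background 0.0435%), with 2 at an unadjusted p under 0.05, and DESeq2 called 0. The comparisons that share ACC or NonA libraries are not independent of each other. The median log2 change of the 8 was −0.73 at ACC against NonA, 0.35 at Deacc2 against ACC and −0.19 at Deacc4 against NonA, beside −0.00, −0.01 and −0.03 over all genes.

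**Figure D2:**
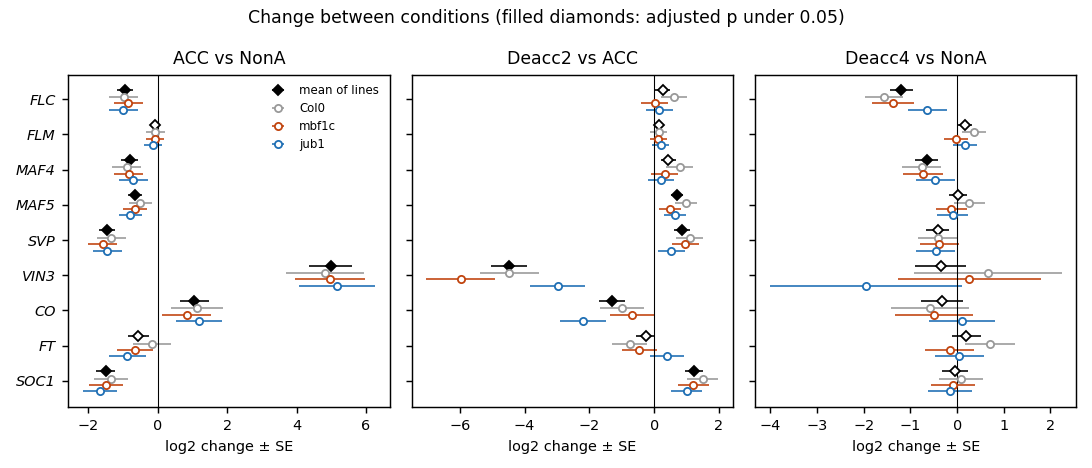
Log2 change (horizontal axis, bars are SE) of the 9 genes (vertical axis) for 3 comparisons, over the mean of lines (diamonds) and in Col0, mbf1c and jub1 (open circles, calls not shown); filled diamonds passed an adjusted p of 0.05. VIN3 has the largest change in the first 2 panels, and FLC and MAF4 are the filled diamonds in the third. VIN3 is drawn from the fit with the filter on low counts, which kept it through its cold libraries.

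Over the mean of lines FLC fell in the cold and was still lower than at NonA after 4 days of warmth. Its lowest, median and highest level was 1.29, 2.26 and 3.12 CPM at NonA and 0.655, 1.22 and 1.81 at ACC. It was 0.490, 1.31 and 3.25 CPM at Deacc2, and 0.298, 0.817 and 2.45 at Deacc4. In the unstranded counts the 3 cold libraries of each line lay below its 3 NonA libraries, while over all lines the groups overlapped. With both strand columns, in CPM over gene totals, only Col0 kept this separation. At Deacc4 the libraries of Col0 and mbf1c lay below those of NonA, and those of jub1 overlapped. At Deacc2 those of mbf1c and jub1 lay below, and those of Col0 overlapped. In jub1 alone no member had an unadjusted p under 0.05 in edgeR at Deacc4 against NonA. The fall was −0.94 ± 0.237 on the log2 scale at ACC (edgeR adjusted p = 0.000932), −0.68 ± 0.236 at Deacc2 (adjusted p = 0.0222) and −1.19 ± 0.244 at Deacc4 (adjusted p = 0.000504), all against NonA. From ACC to Deacc2 and Deacc4 the changes of 0.26 (adjusted p = 0.341) and −0.25 (adjusted p = 0.365) were not called. Without replicate number 1 the fall at ACC was −0.71 and not called (adjusted p = 0.07). The fall at Deacc4 was between −1.36 and −1.06 with any single library left out and was called each time; the one at Deacc2 was lost without Col0 Deacc2 replicate 1 or 2 or mbf1c Deacc2 replicate 2 (adjusted p up to 0.0536). It was also lost without replicate number 1 or 2 (adjusted p = 0.13 and 0.19), with library totals in place of TMM (−0.56, adjusted p = 0.0645), with the length offset described for FLM (−0.51, adjusted p = 0.0533) and without the 3 Deacc2 libraries numbered 2 (−0.57, adjusted p = 0.121).

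Markers of the shoot tip, which a rosette includes, were lower after the cold as well. STM and KNAT1, which mark the shoot meristem, and AS2, listed with them, were all 3 lower at Deacc4 than at NonA. Of all genes tested 40.3% were called there in either direction. The change was −3.09 ± 0.603 for STM, −2.09 ± 0.542 for KNAT1 and −0.98 ± 0.173 for AS2 (edgeR adjusted p = 0.000345, 0.00357 and 0.000138). Within single lines STM and AS2 were called in Col0 alone and KNAT1 in none. The libraries differed widely, with STM at 4.68 to 11.1 CPM at NonA and 0.0447 to 4.48 at Deacc4. KNAT1 was at 1.95 to 5.15 CPM at NonA and 0.0224 to 3.54 at Deacc4. In the cold AS2 was lower by −0.71 ± 0.172 (adjusted p = 0.000619), while the values of STM, −1.19 (adjusted p = 0.0542), and KNAT1, −0.12 (adjusted p = 0.837), were not called; with the replicate block 2 of the 3 were called lower. From ACC to Deacc4 STM and KNAT1 fell by 1.89 and 1.97 (adjusted p = 0.00564 and 0.002), where FLC had no called change. The 5 shoot apex markers summed to 15.2 to 28.9 CPM at NonA and 9.57 to 16.8 in the cold, then 4.82 to 19.3 at Deacc2 and 3.40 to 14.6 at Deacc4. WUS and CLV3 were near 0 throughout: WUS had 8 counts over the NonA libraries and 5 over those of ACC, with 6 of 9 libraries at 0 in each, and none later, and CLV3 had 12, 11, 4 and 1. Whether the lower FLC level belongs to fewer cells of a type or to less RNA per cell cannot be told apart in whole rosettes, and the part of the apex markers in it was not tested.

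With TMM scaling MAF4 and MAF5 fell in the cold, and MAF5 rose after it. With library totals in place of TMM neither fall in the cold was called. MAF4 was 2.05, 3.37 and 4.04 CPM (lowest, median, highest) at NonA, 1.08, 1.61 and 2.97 under ACC, 1.12, 2.33 and 3.70 at Deacc2 and 0.597, 1.70 and 3.58 at Deacc4, and it fell by 0.81 ± 0.242 on the log2 scale in the cold (edgeR adjusted p = 0.00411), a fall not called without replicate number 1 (−0.85, adjusted p = 0.0548). From ACC its changes of 0.44 to Deacc2 (adjusted p = 0.108) and 0.16 to Deacc4 (adjusted p = 0.569) were not called. At Deacc4 MAF4 was still lower than at NonA (−0.65 ± 0.243, adjusted p = 0.0336), a call lost when any 1 of 11 libraries was left out (adjusted p up to 0.0876). MAF5 was 3.47, 5.72 and 9.87 CPM at NonA and 2.53, 3.51 and 6.80 in the cold, then 2.94, 6.06 and 11.3 at Deacc2 and 3.20, 5.52 and 14.2 at Deacc4. Its fall in the cold was −0.65 ± 0.194 (adjusted p = 0.00401), and it rose by 0.71 ± 0.192 in the first 2 days of warmth (adjusted p = 0.00209) and by 0.66 ± 0.193 from ACC to Deacc4 (adjusted p = 0.00356). With the length offset described for FLM the fall of MAF5 was −0.33 and not called (adjusted p = 0.0976). The 2 neighbours of these genes in the same cluster, MAF2 and MAF3, which belong to the same family and are no members of the 9, rose in the cold by 0.55 ± 0.114 and 0.68 ± 0.177 (adjusted p = 0.000127 and 0.00127) and fell by 0.43 and 0.73 at Deacc2. Their difference from MAF4 and MAF5 was not tested.

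FLM, another repressor of this family, gave no change that holds across scalings. Its lowest, median and highest level was 16.1, 24.7 and 31.6 CPM at NonA and 20.1, 23 and 26 at ACC (log2 change −0.09, adjusted p = 0.61). It was 16.8, 26.4 and 33.4 CPM at Deacc2 and 17.2, 29.2 and 37.8 at Deacc4, and the groups overlapped. With library totals in place of TMM its change in the cold was 0.36 and called higher (adjusted p = 0.0384). With an offset for exonic length it was −1.19 and called lower (adjusted p = 0.00166). Exonic length is the union of all annotated exons of a gene and can exceed that of any transcript. FLM has the longest of the 9, 4480 bases. The libraries differed in how log2 CPM followed exonic length, with a median slope per doubling of 0.389 at NonA and 0.986 in the cold, then 0.782 at Deacc2 and 0.808 at Deacc4, so that its direction depends on which correction is used.

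SVP, the repressor with the highest level, and SOC1, which SVP is known to repress, moved together. SVP was 109, 192 and 292 CPM (lowest, median, highest) at NonA, 50.0, 62.2 and 118 under ACC, 89.2, 116 and 205 at Deacc2 and 89.9, 132 and 297 at Deacc4. SOC1 was 40.7, 77.3 and 131 CPM at NonA and 19.7, 25.4 and 56.1 in the cold, then 37.9, 63.3 and 120 at Deacc2 and 43.2, 74.5 and 169 at Deacc4. Both were lowest in the cold in each line by mean level. SVP fell by 1.46 ± 0.244 on the log2 scale in the cold (edgeR adjusted p = 7.38e-06) and SOC1 by 1.5 ± 0.281 (adjusted p = 3.21e-05). SVP rose by 0.86 ± 0.241 within 2 days of warmth (adjusted p = 0.00285) and by 1.04 ± 0.242 within 4 days (adjusted p = 0.000419), the first not called without replicate number 1 (adjusted p = 0.0572), and SOC1 by 1.24 ± 0.279 (adjusted p = 0.000332) and 1.45 ± 0.280 (adjusted p = 4.77e-05). SVP remained lower at Deacc2 than at NonA (−0.61 ± 0.240, adjusted p = 0.044), a call lost when any 1 of 22 libraries was left out (adjusted p up to 0.118).

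Over the 36 libraries, which share library depth and composition, log2 levels of SVP and SOC1 had a Pearson r of 0.953, the highest among the 36 pairs of the 9 genes. The Deacc2 libraries numbered 2 were the lowest of their group for both genes in all 3 lines, at 89.2, 92.7 and 93.8 CPM for SVP in Col0, mbf1c and jub1, and at 37.9, 39.3 and 53.2 CPM for SOC1. The slopes on exonic length in these libraries were 1.188, 1.128 and 0.890. Without these 3 libraries SVP at Deacc2 was −0.41 against NonA and not called (adjusted p = 0.285). The leaf markers fell in the cold as well, 3 of 4 called lower, beside 35.3% of all genes tested. They summed to 35958 to 80266 CPM at NonA and 15196 to 39220 at ACC, and their part in the fall of SVP and SOC1 was not tested.

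**Figure D3:**
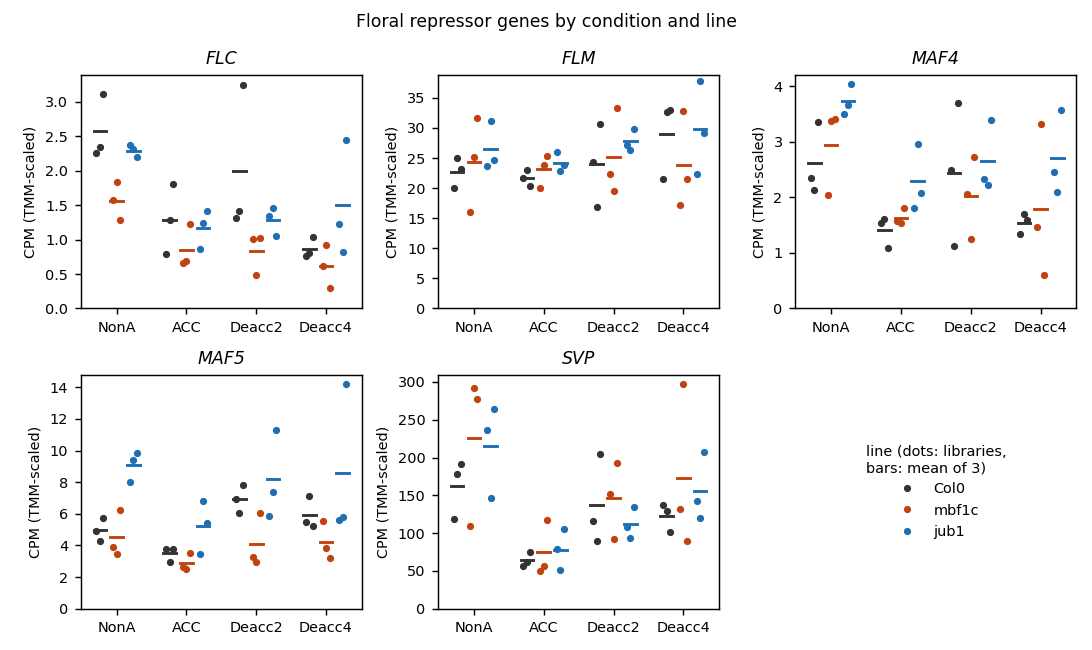
Levels of the floral repressor genes FLC, FLM, MAF4, MAF5 and SVP in CPM after TMM scaling (vertical axis, linear from 0) at the 4 conditions (horizontal axis). Each dot is a library, coloured by line, and each bar is the mean of 3 libraries. FLC falls from a median of 2.26 CPM at NonA to 0.817 at Deacc4, whereas MAF5 and SVP rise again after the cold.

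CO rose in the cold from a very low level. It was 0.0964, 0.184 and 0.276 CPM (lowest, median, highest) at NonA and 0.0693, 0.377 and 0.859 in the cold, then 0.0524, 0.140 and 0.315 at Deacc2 and 0, 0.0976 and 0.355 at Deacc4, from 50, 160, 61 and 45 counts in all. Over all lines the ranges overlapped. Within Col0 and jub1 each cold library was above the NonA libraries, and in mbf1c, where a cold library had 2 counts, they overlapped. The tests of CO come from the fit with the filter on low counts. That filter removed CO from fits of NonA with Deacc2 or Deacc4 alone, so its place among the tested genes leans on the cold libraries. The rise was 1.05 ± 0.412 (edgeR adjusted p = 0.0247) and the falls from ACC were −1.29 ± 0.396 at Deacc2 (adjusted p = 0.00557) and −1.38 ± 0.412 at Deacc4 (adjusted p = 0.00426). The rise was lost without mbf1c ACC replicate 1 (adjusted p = 0.0657), with any 1 of the 3 replicate numbers left out (adjusted p up to 0.0953), and with the length offset (0.54, adjusted p = 0.254). Without replicate number 3 the falls were −0.87 and −0.80 and not called (adjusted p = 0.102 and 0.128). On 25.4% of its exonic bases CO overlaps genes on the opposite strand, and the unstranded counts used here leave out reads on those bases.

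Clock genes, which time CO, changed in the cold as well, where 35.1% of all genes tested were called higher and 35.3% lower. CCA1 and LHY, which peak in the morning, were higher in the cold by 4.17 ± 0.283 and 4.41 ± 0.365 on the log2 scale (edgeR adjusted p = 1.32e-12 and 5.74e-11), and 7 of 9 clock genes were called higher and LUX lower. Of 13 photoperiod genes tested, 9 were higher in the cold, among them CDF3, a repressor of CO, by 0.80 ± 0.165 (adjusted p = 0.000116), and CRY1, a blue-light receptor, was lower by 0.63 ± 0.152 (adjusted p = 0.000665). At Deacc4 GI and FKF1, whose proteins together remove CDF repressors of CO, were above NonA by 1.62 ± 0.302 and 1.39 ± 0.284 (adjusted p = 0.000226 and 0.000519) and CDF1 below it by 0.96 ± 0.176 (adjusted p = 0.000197). The part of the clock in the CO values was not tested.

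FT had no called change in the cold, unlike CO, but the 2 were not compared by a test. FT was 0.491, 1.29 and 2.34 CPM (lowest, median, highest) at NonA and 0.361, 0.929 and 1.63 in the cold, then 0.359, 0.925 and 1.22 at Deacc2 and 0.708, 1.51 and 2.81 at Deacc4, with overlap between all conditions. The change in the cold was −0.56 ± 0.308 and not called (edgeR adjusted p = 0.103). FT was lower at Deacc2 than at NonA (−0.83 ± 0.312, adjusted p = 0.0337), and higher at Deacc4 than at ACC (0.76 ± 0.304, adjusted p = 0.0285). With the length offset both calls were lost (−0.50 and 0.56, adjusted p = 0.161 and 0.0667). The first call was also lost when any 1 of 8 libraries or any replicate number was left out, and the second for any 1 of 6 libraries, with adjusted p up to 0.151 and 0.102. From Deacc2 to Deacc4 FT had the largest difference among the 9, 1.03 ± 0.307, at an unadjusted p of 0.00224 and an adjusted p of 0.222. Its close relative TSF, which also promotes flowering, rose in the cold by 2.94 ± 0.600 (adjusted p = 9.99e-05) from a median of 0.0367 to 0.618 CPM and fell by 2.23 ± 0.525 at Deacc2 (adjusted p = 0.000519). These values rest on 20 counts over the NonA libraries, of which 3 had none, 219 at ACC, 42 at Deacc2 and 40 at Deacc4. Whether TSF would pass the filter on low counts without the cold libraries was not tested.

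Genes that act on these 9 changed in groups as well. Of 8 genes of the autonomous pathway, which keeps FLC low, 8 were higher in the cold, with FY by 1.30 ± 0.173, FVE by 1.26 ± 0.188 and FLK by 1.20 ± 0.190 (edgeR adjusted p = 2.44e-07, 1.43e-06 and 3.69e-06). With the length offset 6 of the 8 were called higher and 2 lower. Of 12 tested vernalization and Polycomb genes 10 were higher in the cold, among them SWN, a histone methyltransferase subunit, by 1.39 ± 0.317 (adjusted p = 0.000335), and with the length offset 10 were called higher and 1 lower. VAL1 and VAL2, which bring silencing complexes to FLC, were still higher at Deacc4 than at NonA by 0.72 ± 0.204 and 1.02 ± 0.242 (adjusted p = 0.00695 and 0.00178). Of 11 tested activators of FLC 6 were higher in the cold and ARP6, part of a chromatin remodelling complex, was lower by 0.80 ± 0.128 (adjusted p = 3.88e-06). Beside the 35.1% of all genes called higher in the cold, with a median log2 change of −0.00, stood medians of 1.23 for the autonomous list, 0.95 for the vernalization list and 0.42 for the activators.

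Most repressors of FT fell in the cold. Of 8 genes 7 were lower (background 35.3%), with TEM2 by −3.13 ± 0.537, SNZ by −1.47 ± 0.166 and TOE3 by −1.25 ± 0.211 (edgeR adjusted p = 1.08e-05, 1.61e-08 and 8.3e-06). From ACC to Deacc2 TEM1, TEM2, SNZ and TOE3 rose and SMZ fell, with TEM2 by 2.47 ± 0.523 (adjusted p = 0.000161). At Deacc4 SMZ, TOE2 and SNZ were lower than at NonA, by −1.37, −0.72 and −0.65 (adjusted p = 2.2e-05, 0.000334 and 0.00305). With library totals in place of TMM, 4 of the 8 were called lower in the cold.

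Other genes on the way to flowering moved in both directions in the cold, where 35.1% of all genes tested were called higher and 35.3% lower. Of 8 genes of temperature sensing PIF4, a growth-promoting bHLH factor that can activate FT in warmth, was lower in the cold by 2.36 ± 0.176 and PIF5 by 0.75 ± 0.174 (edgeR adjusted p = 8.76e-12 and 0.000386), and HOS1, a ubiquitin ligase acting on CO, was higher by 1.75 ± 0.288 (adjusted p = 6.1e-06), with 2 higher and 3 lower in all. Of 9 tested genes of the floral transition FUL was higher in the cold by 0.86 ± 0.232 (adjusted p = 0.00174), and AGL24, SPL4 and SPL5 were lower, AGL24 by 0.63 ± 0.170 (adjusted p = 0.00169). The phloem companion cell markers SUC2, APL and AHA3, genes of the cells where FT is made, summed to 107 to 217 CPM at NonA and 205 to 337 in the cold, with SUC2 and AHA3 higher by 0.53 ± 0.129 and 1.36 ± 0.287 (adjusted p = 0.000619 and 0.000147), and their part in the FT values was not tested. The 4 root markers summed to 48.5 to 101 CPM at NonA and 6.42 to 10.7 in the cold, nearly all of it PYK10 (median 59.9 and 6.01 CPM); PIN2 was lower too (−1.10 ± 0.403, adjusted p = 0.0169), WOX5 was not called (0.15, adjusted p = 0.737), and COBL9, not tested, had 16 and 43 counts.

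The mutants were compared with Col0 over the mean of the 4 conditions. By edgeR's test 0 of the 9 genes were called in mbf1c and 0 in jub1 (background 0.0290% and 0.0339%), with 3 of the 9 at an unadjusted p under 0.05 in each, and DESeq2 called 0 in each. In none of 6 tests of whether a change between conditions differed between a mutant and Col0 was a member called, by edgeR or DESeq2, and none had an unadjusted p under 0.05 in edgeR or DESeq2. In mbf1c FLC was the lowest relative to Col0, −0.77 at an unadjusted p of 0.000944 and an adjusted p of 0.619. At NonA FLC was 2.26, 2.35 and 3.12 CPM in the 3 Col0 libraries and 1.58, 1.83 and 1.29 in the 3 of mbf1c, and the groups did not overlap at NonA or Deacc2 but did at ACC and Deacc4.

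FLC depends on the count column used. It shares 68.1% of its exonic bases with AT5G01675, an annotated lncRNA gene on the opposite strand, and reads on such bases are left out of the unstranded counts. Over all libraries FLC had 1782 unstranded counts and 4730 in the 2 strand columns together, and the first strand column, which held 50.4% to 52.0% of stranded counts, was above the unstranded one in 35 of 36 libraries. The summed strand columns also count reads of the opposite gene's RNA. With the first strand column FLC in mbf1c was −0.86 and called lower (adjusted p = 0.0271), and with both strand columns, an alternative added after the data were seen, −0.86 (adjusted p = 0.0104), where 0.0669% of all genes were called. On that scale FLC was 6.21 ± 0.837 CPM over gene totals in Col0 at NonA and 3.47 ± 0.702 in mbf1c (SD, n = 3), 3.79 ± 0.389 and 2.21 ± 0.653 at ACC, 4.81 ± 2.01 and 1.95 ± 0.535 at Deacc2, and 2.44 ± 0.418 and 1.48 ± 0.425 at Deacc4, and the groups did not overlap at any of the 4 conditions. At Deacc4 the margin was narrow, with 1.97 CPM in the lowest Col0 library and 1.93 in the highest of mbf1c. The share of all genes that separate in this way was not counted. In jub1 the FLC values on this scale overlapped Col0 at all 4 conditions. On the same scale the cold libraries of Col0, 3.35 to 4.10 CPM, lay below its NonA libraries, 5.49 to 7.13. They overlapped NonA in mbf1c (1.63 to 2.92 against 2.67 to 3.98) and in jub1 (2.58 to 4.69 against 4.33 to 5.58). At Deacc4 the libraries of each line lay below those of NonA, in jub1 at 2.62 to 4.08 CPM.

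**Figure D4:**
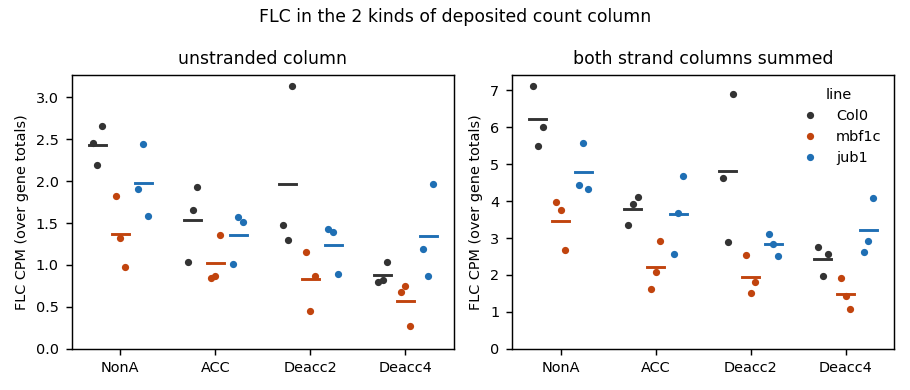
FLC in CPM over gene totals (vertical axes, linear from 0) by condition (horizontal axes), from the unstranded column at left and from the sum of both strand columns at right. Each dot is a library, coloured by line, and bars are means of 3. In the right panel all mbf1c libraries lie below all Col0 libraries of the same condition.

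For jub1 the largest member differences were in the MAF genes and FT. MAF5 was 0.55 higher than in Col0 (unadjusted p = 0.0026, adjusted p = 0.497), MAF4 0.54 (0.0149 and 0.502) and FT 0.60 (0.031 and 0.514), none called. MAF4 libraries of jub1 lay above those of Col0 without overlap at 3 of 4 conditions, and the share of all genes that separate likewise was not counted. In mbf1c MAF5 was −0.42 (adjusted p = 0.619) and FT 0.64 (adjusted p = 0.619).

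Levels were set beside each other only after division by exonic length. This length is the union of annotated exons and can exceed that of any transcript, so the place of FLM, with 4480 bases, is uncertain. Per kilobase the mean level at NonA ran from 112 CPM per kb for SVP and 55.3 for SOC1, through 5.47 for FLM and 5.06 for MAF5, to 1.88 for MAF4, 1.82 for FLC, 1.46 for FT, 0.0626 for CO and 0.00514 for VIN3. The ranges of the libraries overlapped between SVP (60.6 to 163) and SOC1 (26.2 to 84.1), between FLM and MAF5, and among MAF4, FLC and FT. For FLC and CO the unstranded counts leave out reads on the bases they share with other genes while the whole exonic length is the divisor, so that their levels are understated and their places in this order are uncertain. Both strand columns, which also count reads of the opposite genes, held 2.73 and 2.14 times as many counts for them at NonA. At ACC VIN3 reached 0.254 and SVP fell to 40.5 CPM per kb.

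Other genes with a like pattern were named by the highest Pearson r of log2 CPM over the 36 libraries among 17463 genes, a description with no test, since libraries share depth and condition. For SVP the closest genes were AT4G32030, AT3G54290 and RER1B at 0.982, 0.981 and 0.980, and for SOC1 HB6, AT5G03460 and AT1G74940 at 0.983, 0.981 and 0.975. For VIN3 they were AT4G38380, AT2G16890 and GBSS1 at 0.941, 0.936 and 0.927. FLM was closest to AT5G40300 at 0.882, MAF4 to CB5-B at 0.829, CO to scpl4 at 0.800, FLC to RABE1e at 0.740, FT to U4atac at 0.718 and MAF5 to MBF1C at 0.711. MBF1C is the gene mutated in mbf1c.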

How the data were processed

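Total RNA of whole rosettes was sequenced on the BGISEQ-500 platform, per the labels' protocols. The deposited values are raw read counts per gene, 1 table for each library, with an unstranded column and 1 for each strand. The submitters' processing notes name the aligner STAR 2.6.0c, the build TAIR10 and DESeq2, whose role they do not state. No source used here gives the annotation release. The authors' counts leave reads that touch several genes outside the gene rows, 3.13% to 5.86% of reads, and multimapping reads, 2.54% to 5.20%.

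Genes passing edgeR's filterByExpr (edgeR 4.0.16, R 4.3.3) were scaled with TMM and fitted with a quasi-likelihood model of 12 groups in 36 libraries. In all, 40 contrasts were tested with Benjamini-Hochberg adjustment over 20679 genes at 0.05; adjusted p-values come from edgeR unless another tool is named. The test was checked on simulated counts in which a small set of genes changed and exonic length had no effect. That check cannot speak to the scaling or to the length offset. Wherever libraries are said not to overlap, the share of all genes that separate likewise was not counted. The 9 genes, the pathway lists of 118 genes and the named-gene rule (the 9 members, up to 3 genes per list with the smallest adjusted p in each of 3 contrasts, the 3 genes most like each member, MBF1C and JUB1) were chosen with earlier results of these data known. Listed genes without an annotated name are counted and not named. Alternatives were RLE scaling, DESeq2 1.42.0, a replicate block, no filter on low counts, a fit of only the groups compared and the first strand column. Further ones were an offset for exonic length with and without the block, and each replicate number left out. Both strand columns summed, library totals, each library left out and the Deacc2 libraries numbered 2 left out were added after the data were seen. No member had a copy of over 95% identity across 200 bases in another gene (BLAST 2.17.0). Promoters come from RefSeq TAIR10.1.

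The sample titles give the replicate number as an experiment number shared over lines and conditions, without saying what an experiment shared, and the numbers were taken to pair the libraries. As a check, deviations from group means were correlated across genes: all 12 same-number pairs of mbf1c and Col0 were over 0.1 (lowest 0.288), and in the other 7 comparisons over lines or conditions not all pairs were.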

Additional observations from a re-analysis of the deposited data

How the results depend on the processing

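Counts of members called at ACC against NonA, Deacc2 against ACC and Deacc4 against ACC were 7, 5 and 6 with VIN3 counted. All alternatives stayed within 1.5 times of these, with 1 exception. At ACC against NonA 4 were called without replicate number 1 (4 to 6 with a number left out). VIN3, which the filter kept through its cold level, is among the 7, 5 and 6. Without VIN3 the main fit called 6, 4 and 5 of 8, CO among them each time, and the alternatives were not counted without VIN3. At Deacc2 against NonA 3 were called, and 1 without the filter, with the first strand column or with the length offset, 0 with library totals or without the Deacc2 libraries numbered 2, 0 to 1 with a replicate number left out and 0 to 3 with a single library left out. At Deacc4 against NonA 2 were called, and 1 without the filter, with the first strand column, with library totals or with only the compared groups, 1 to 2 with a replicate number left out and 1 to 3 with a single library left out. In mbf1c against Col0 0 were called, and 1, FLC, with the first strand column or both strand columns. The cause of these changes was not tested.

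Directions changed in few cases. VIN3 turned with the first strand column to −0.08 at ACC against NonA in jub1, and at Deacc4 against ACC to 0.28 in Col0, 0.18 in jub1 and 0.02 over lines; with both strand columns it was 0.12 in Col0. FLM at ACC against NonA was 0.36 with library totals and −0.16 to 0.03 with a replicate number or a library left out (0.03 without mbf1c NonA replicate 3), and FLC at Deacc2 against ACC was −0.02 with library totals. Library totals moved the median of all genes by 0.42 at ACC against NonA. Under them MAF4, −0.35, and MAF5, −0.22, were not called in the cold.

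The replicate block, which pairs libraries by the experiment number in their titles, changed no call of the 9 genes: 7 were called at ACC against NonA as without it, and in mbf1c against Col0 0. There FLC was −0.73 with the block (adjusted p = 0.386). With only the compared groups CO and VIN3 gave no value at Deacc2 or Deacc4 against NonA, because the filter removed them. Depth limits CO and VIN3 most, at 316 and 271 counts in all.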
